A study of Mus musculus with 6 samples.

Results

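The genes described here encode molecular chaperones and their direct partners in mouse kidney. They were taken from the deposited table by gene symbol: the small heat shock proteins (Cryab and the Hspb genes), the Hsp70, Hsp90 and Hsp60/Hsp10 families, the CCT chaperonin with Tcp1, the J-domain proteins (Dnaj), the BAG proteins, the protein disulfide isomerases (Pdia), the FK506-binding proteins (Fkbp, without Fkbp5), and Stip1 and Chordc1. The rule took 75 rows for 74 genes out of 7373 rows, and dropped any row at 0 in control 3, which removed 0 of them. The authors' minimum expression value was met in all 6 kidneys by 68 of the 75 rows, in 5 kidneys by 1, in 4 by 5 and in 2 by 1, so members expressed below it are not seen here. Cct6a has 2 rows, since the authors' table counts it at a pair of loci on chromosome 5. Kidneys came from adult male FVB/N mice, an inbred strain. The transgenic group (3 samples) overexpressed CryAB with the R120G mutation, a variant known for protein aggregates in heart muscle, from the promoter of α-myosin heavy chain, which is active in cardiomyocytes, and was sampled before heart failure set in. The control group (3 samples) was matched for age and sex. The column headers mark the libraries of both groups as Pre_IRI. The comparison asks which chaperone transcripts differ in the kidney when the misfolding protein is made in heart muscle. The labels give neither an age in weeks nor a count of animals, so the tests measure the spread between these samples, which may in part be technical.

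Chaperones bind proteins that are unfolded or partly folded and keep them from clumping. Small heat shock proteins hold unfolded clients. J-domain proteins hand clients to Hsp70, Hsp70 folds them with ATP and with nucleotide exchange factors such as the BAG proteins and Hsph1, and Hsp90 takes over signalling proteins through bridging partners such as Stip1. Chaperonins enclose a client in a ring, CCT in the cytosol and Hspd1 with Hspe1 in mitochondria. The heat shock factor HSF1 drives the stress-inducible cytosolic members, while the unfolded protein response drives those of the endoplasmic reticulum (ER). In the kidney CryAB is an abundant protein of the medulla, where salt and urea are concentrated.

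Letters of the motifs known for both stress programs stand in the promoters of several members. RefSeq promoters (GRCm38.p6, from 250 bases before to 50 after the start site) were found for 60 of the 74 genes, and 14, Cryab, Hspa8, Hsp90aa1 and Hsp90ab1 among them, had no entry. The heat shock element of 3 units, TTCNNGAANNTTC or GAANNTTCNNGAA on either strand, was present in 5 of the 60 genes (8.33%), against 179 of all 27025 genes in the promoter table (0.662%). Of the 5821 genes with a promoter that the authors' table lists above 0 in control 3, 42 held it (0.722%). These were Dnajb6, Hspd1, Hspe1, Hsph1 and Chordc1; in the last pair the match lay in the bases after the start site and is not printed. The shorter form of 2 units, GAANNTTC or TTCNNGAA, which the longer motif contains, was present in 17 of the 60 (28.3%), against 17.0% of all genes and 14.3% of those 5821. The 2 elements before a start site are shown for these reasons. Dnajb6 is a gene whose groups did not overlap. Hspd1 and Hspe1 share theirs between the divergent start sites of the promoter table, so this site counts for both genes in the 5. Capitals mark the bases matched, in Hspe1 the union of 2 overlapping matches, and each line reads 5′ to 3′ on the strand of the gene.
Dnajb6 (chr5:29735842-29735874, + strand, match ending 33 bases before the start site): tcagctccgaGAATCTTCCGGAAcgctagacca
Hspe1 (chr1:55088049-55088086, + strand, match ending 71 bases before the start site): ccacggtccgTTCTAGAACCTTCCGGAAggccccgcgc

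The ER stress response element, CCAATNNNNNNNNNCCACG or its reverse complement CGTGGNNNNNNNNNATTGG, was present in 4 of the 60 genes (6.67%) and in 37 of all 27025 genes (0.137%). All 4 of the members encode ER chaperones or their partners. They are shown because Hspa5, the central ER chaperone, was among the 8 members with the largest spread between kidneys. Capitals mark the element. Hsp90b1 holds a second match, in the reverse form, nearer to its start site.
Hspa5 (chr2:34772015-34772053, + strand, match ending 46 bases before the start site): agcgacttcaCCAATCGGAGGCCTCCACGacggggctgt
Hsp90b1 (chr10:86705628-86705666, - strand, match ending 193 bases before the start site): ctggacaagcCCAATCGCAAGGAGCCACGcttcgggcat
Pdia6 (chr12:17266481-17266519, + strand, match ending 79 bases before the start site): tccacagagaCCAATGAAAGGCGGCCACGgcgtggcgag
Dnajc3 (chr14:118937817-118937855, + strand, match ending 86 bases before the start site): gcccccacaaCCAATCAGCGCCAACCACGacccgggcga
A match is a run of letters and does not show that a factor bound there.

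The libraries held 23.5 to 47.6 M estimated read counts over the listed genes. A chromosome position was found for 7354 of the 7373 rows. Control 3 stood apart: all 178 rows placed on chromosomes X and Y are listed at 0 in it, and none of the other 7195 rows is. On a first principal component of those other rows, which held 55.1% of the variance, control 3 lay at 25.0 and the other 5 libraries between -10.7 and 0.926. Where a fold change of a chaperone gene turned its direction without control 3, that value is given beside it. Of 13 kidney markers 12 were measured, 5 higher and 7 lower in transgenic kidneys with a median log2 fold change of -0.01. Of 14 heart and skeletal muscle genes 1 was measured, Des, at 17.02 to 19.3 CPM (the read count scaled to library size). Of 8 fat cell genes 3 were measured, each highest in control 2, and their median difference from the gene's mean ran from -2.69 (control 3) to 2.80 (control 2) on the log2 scale. Of 10 macrophage genes 7 were measured (-0.32 in transgenic kidney 1 to 0.17 in control 3), 6 of them lower in transgenic kidneys with a median log2 fold change of -0.22. Of 7 red cell genes 3 were measured (-0.69 in control 3 to 0.58 in control 1), all 3 lower with a median of -0.32. Among these, Hba-a2 (-2.64, unadjusted p = 0.032) and Hbb-bs (-0.32, unadjusted p = 0.041) did not pass the edgeR test after adjustment. The groups overlapped in Hba-a2, at 14.2, 12.7 and 0.26 CPM in controls and 1.05, 2.06 and 1.24 in transgenic kidneys. Hba-a1 was at -0.23. The 3 fat cell genes had fitted values below 0, with a median of -0.52, but their direction was not fixed. Over the fits that leave out 1 library this median ran from -1.11 to 2.86. Cfd, for example, was at 0.22, 77.2 and 0.04 CPM in controls and at 28.7, 6.87 and 18.3 in transgenic kidneys. The part of these cell types in the chaperone values was not tested. The counts do not separate reads of the transgene from those of endogenous Cryab.

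Levels were compared between genes as CPM per kb of the longest principal transcript. They spanned 255-fold over the 73 members with a length. Hspa8, the constitutive cytosolic Hsp70, led at 1344 ± 181 CPM per kb (SD, n = 6), with every kidney (1075 to 1570) above every value of the next gene. Hspa8 took between 20.3% and 24.01% of all counts of the members in a library. Hsp90ab1, the constitutive Hsp90, followed at 358 ± 21.6 CPM per kb, then the mitochondrial cochaperonin Hspe1 (320.3 ± 50.5), the Hsp70 exchange factor Bag1 (305 ± 15.4) and Dnajc19 (266 ± 30.1), a J-domain protein of the mitochondrial inner membrane. Hspa9 and Hspd1, the Hsp70 and Hsp60 of the mitochondrial matrix, stood at 241 ± 30.7 and 235 ± 10.1, the ER Hsp90 gene Hsp90b1 at 220.5 ± 31.0, and Cryab at 192 ± 37.3. From Hsp90ab1 down to Fkbp8, each gene's range over the 6 kidneys overlapped that of the next gene. The order of neighbours in this run is therefore not fixed by these data. Its ends did not overlap, with Hsp90ab1 at 329 to 386 CPM per kb and Fkbp8 at 160 to 168. The stress-inducible pair Hspa1a and Hspa1b were near the bottom, at 5.96 ± 1.51 and 9.41 ± 2.59 CPM per kb. Their transcripts are 90.7% identical where aligned, and how shared reads were counted is not given, so both levels are uncertain.

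Of the subunits of CCT, which form one ring together, the 7 with a length lay close to each other. They ran from 66.2 CPM per kb (Cct4) to 95.9 (Cct5), a ratio of 1.45. Cct6a had no length and is left out of this ratio. Before division by length its pair of rows was lower, at 19.1 to 31.7 and 13.5 to 18.1 CPM. The other subunits ran from 149 to 208 CPM. Hspe1 stood 1.36-fold above its partner Hspd1. Together the members took 1.27% of the counts in control 2, the lowest share, and 1.65% in control 3, the highest.

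**Figure D1:**
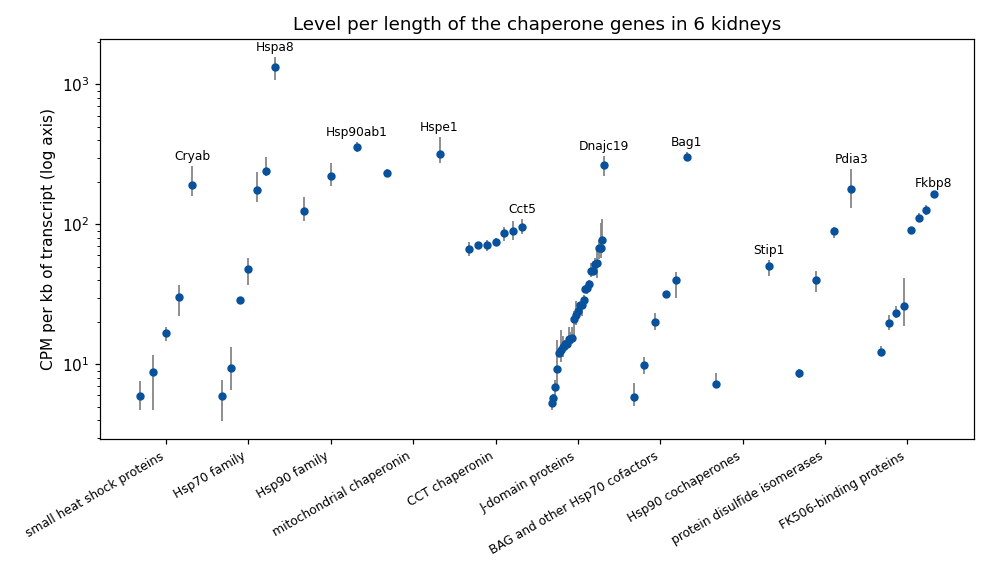
Level per length of the 73 members with a transcript length, by role; points are means of 6 kidneys, lines run from the lowest to the highest kidney, and the vertical axis is CPM per kb on a log scale. Hspa8 stands above all others at 1344 CPM per kb. The 7 CCT subunits with a length lie between 66.2 and 95.9, and Cct6a, which has no length, is not shown.

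No chaperone transcript passed the test between transgenic and control kidneys. Among 75 rows, 24 had a log2 fold change above 0 (32.0%, against 50.3% of all 7194 rows tested) and 51 below 0 (68.0%, against 49.7%), with a median of -0.03, against 0.00 over all rows. The fold changes of the members ran from -0.41 (Fkbp3) to 0.29 (Hspb2) on the log2 scale. Hspb2 is the row that met the authors' minimum expression value in only 2 kidneys. With edgeR (quasi-likelihood test, Benjamini-Hochberg over all rows) 0 members passed at an adjusted p of 0.05, where 0.0139% of all rows did (1 row). DESeq2 also called 0 members (0.0278% of all rows), as did limma voom with array weights, which weight each library by its quality (0.0139%). At an unadjusted p under 0.05 each tool had 1 member (1.33%), Cryab, against 1.82% of all rows in edgeR, 2.27% in DESeq2 and 8.81% in limma voom with array weights. Without control 3 the balance of signs turned: 45 members were above 0 (60.0%, against 50.1% of all rows) and 30 below (40.0%, against 49.9%), with a median of 0.02. In that edgeR fit 0 members passed after adjustment (0.0278% of all rows) and 1 had an unadjusted p under 0.05 (2.31% of all rows).

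The 3 transgenic values lay above all 3 controls in 1 member, Cct7 (2.96% of all rows did so), and below in 4, Cryab, Dnajb6, Fkbp2 and Bag1 (3.02% of all rows, 5.33% of the members). Without control 3 these counts were 9 higher (7.6% of all rows) and 7 lower (7.46%). Cryab, Dnajb6, Fkbp2 and Bag1 were among the 7 lower, and Cct7 among the 9 higher. The 95% interval of the fold change, from the same edgeR fit and for single genes, had a median half-width of 0.26 on the log2 scale. It lay within 1.5-fold in either direction for 66 of 75 members (88.0%, against 89.6% of all rows), and within 2-fold for all 75.

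**Figure D2:**
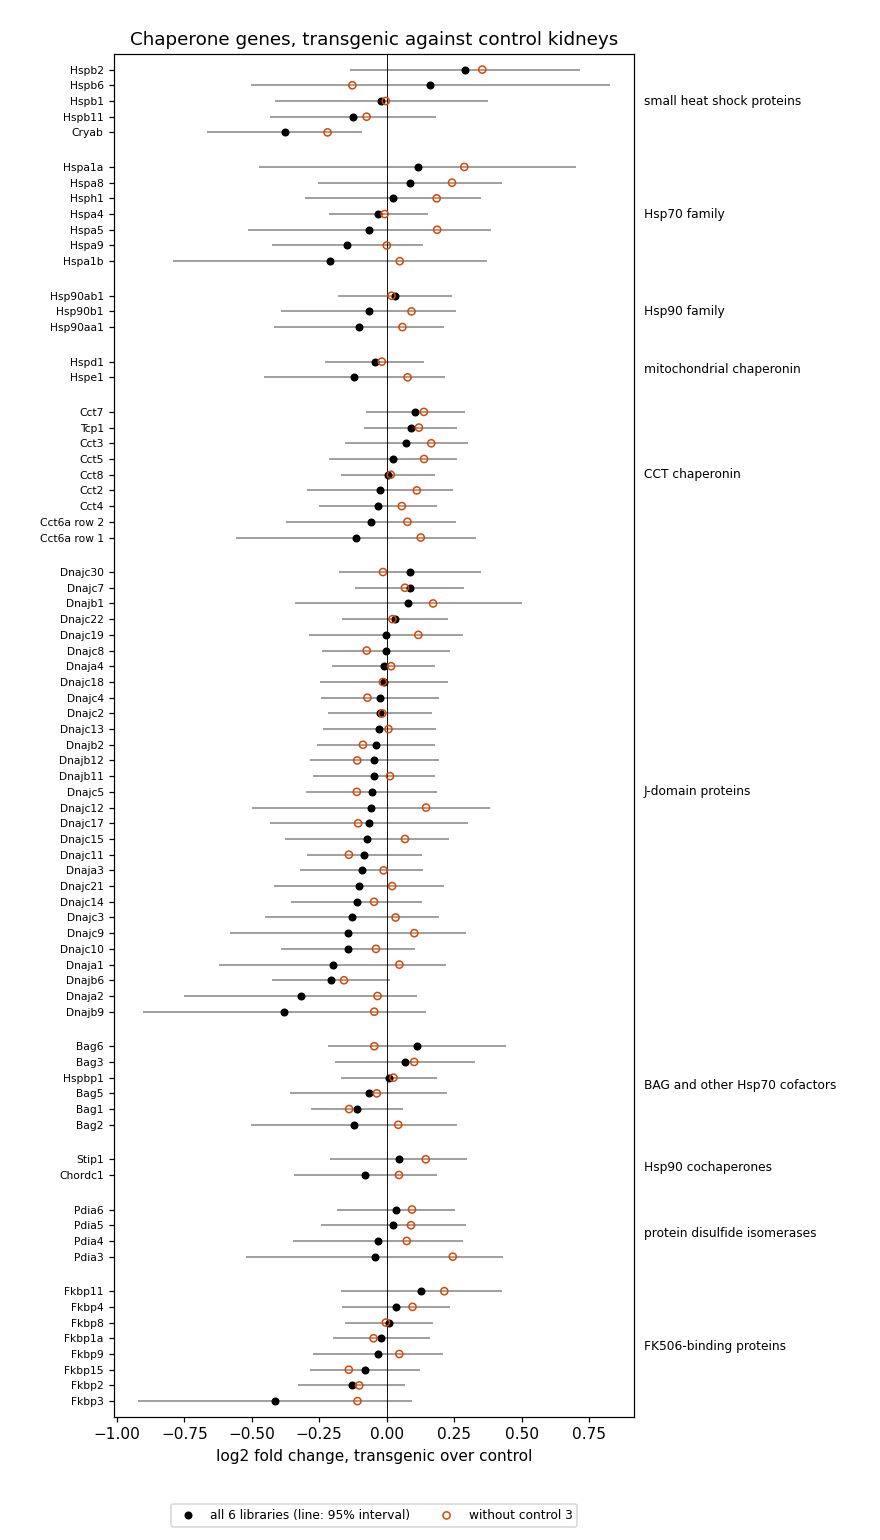
Log2 fold change of each of the 75 rows, transgenic over control, by role; filled points use all 6 libraries, lines are 95% intervals from the edgeR fit, and open circles leave out control 3. The interval of Cryab (-0.67 to -0.09) is the one interval of the 75 that does not reach 0, and 45 of the 75 open circles lie above 0.

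Cryab, the gene of the overexpressed protein, had the smallest p-value among the members. Control kidneys 1 to 3 held 210.1, 223 and 292 CPM of it, and the transgenic ones 186, 178 and 194. Every transgenic value was below every control, and control 3 was the highest. The means were 242 ± 44.2 (SD, n = 3) and 186 ± 7.88 CPM (SD, n = 3), a log2 fold change of -0.38 ± 0.13 (SE; 95% interval -0.67 to -0.09; unadjusted p = 0.0160, adjusted p = 0.997, edgeR quasi-likelihood test). Without control 3 it was -0.22, and over the 6 fits that leave out 1 library it ran from -0.47 to -0.22. Genes of the inner medulla and of osmolyte handling were read beside it. S100a6, a calcium-binding protein, was at 37.2, 45.3 and 59.6 CPM in controls and at 35.6, 36.0 and 34.9 in transgenic kidneys (log2 fold change -0.42, and -0.22 without control 3). Akr1b3, the aldose reductase that makes sorbitol, was at -0.23 (-0.13 without control 3). Of the 13 measured genes of that list 10 were lower and 3 higher, with a median of -0.09, and their median difference from the gene's mean was lowest in transgenic kidney 2 (-0.20) and highest in control 3 (0.13). Control 3 was the highest library in 6 of the 13. Other genes of the list had another order of controls. Aqp2 (692, 670 and 599 CPM in controls 1 to 3) and Slc14a2 (33.8, 37.0 and 27.7), for example, were lowest among controls in control 3. Both were lower in transgenic kidneys, Aqp2 at -0.16 (-0.22 without control 3) and Slc14a2 at -0.08 (-0.19 without control 3). The 3 higher genes were Slc6a6 (0.18), Fxyd4 (0.07) and Clu (0.04, and -0.01 without control 3). The part of these genes' tissue zone in the Cryab values was not tested. In bulk kidney, fewer cells of a type and less RNA per cell cannot be told apart.

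The groups overlapped in the other 4 small heat shock genes. Hspb1 (a stress-inducible member that protects actin) was at 29.3, 25.7 and 28.4 CPM in controls and at 33.1, 20.03 and 28.9 in transgenic kidneys, so the highest and the lowest value were both transgenic (log2 fold change -0.02 ± 0.17, SE). Hspb2, a muscle-enriched member, was low, at 4.35, 3.65 and 4.49 CPM in controls and 5.90, 4.37 and 4.98 in transgenic kidneys. Its groups overlapped (log2 fold change 0.29, 95% interval -0.13 to 0.72). It met the authors' minimum expression value in only 2 kidneys, and its highest values were those of transgenic kidneys 1 and 3. It may thus have entered the members through the group where it was higher. Hspb2 and Cryab are neighbours on chromosome 9 (mm10), and all 1283 bases of Hspb2 (50751072 to 50752354) lie within the annotated span of Cryab (50745951 to 50756636), so without known strand use some reads could count for either. Hspb6, a member of muscle and vessel wall, was at 11.6, 15.8 and 6.45 CPM in controls and 11.0, 14.4 and 12.4 in transgenic kidneys. It was the most variable member, and control 3 was its lowest library. Hspb11, a ciliary transport protein that carries the family name, had a log2 fold change of -0.13.

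The Hsp70 genes overlapped between the groups in all 7 members measured. Hspa8 was at 3029.6, 2575 and 3759 CPM in controls and at 3536, 2988 and 3417 in transgenic kidneys (log2 fold change 0.09 ± 0.15, SE; 0.24 without control 3 and -0.03 without control 2). Controls 2 and 3 marked the lowest and highest of the 6 values. Hspa1b, a stress-inducible Hsp70, was at 28.3, 19.2 and 37.4 CPM in controls and 30.9, 18.5 and 23.9 in transgenic kidneys (-0.21, and 0.05 without control 3). Its copy Hspa1a was at 18.6, 11.7 and 20.7 CPM in controls and 23.1, 12.8 and 19.2 in transgenic kidneys (0.12, and 0.29 without control 3). Both genes were low in control 2 and in transgenic kidney 2 and high in control 3 and in transgenic kidney 1. They lie 10120 bases apart on chromosome 17 and their transcripts are 90.7% identical where aligned, with an identical run of 638 bases, so the split of reads between them is uncertain.

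The exchange factors of the Hsp70 cycle in this family, Hsph1 and Hspa4, differed by 0.02 and -0.03 on the log2 scale (0.19 and -0.01 without control 3). Hsph1, with a heat shock element after its start site, was at 181, 141 and 218 CPM in controls and within 180.3 to 186 in the transgenic kidneys. The ER member Hspa5 (BiP), with the ER element shown above, was at 557, 556 and 874 CPM in controls and 749.9, 527 and 623 in transgenic kidneys. Control 3 and transgenic kidney 1 were its high libraries (log2 fold change -0.06, 95% interval -0.52 to 0.39, and 0.19 without control 3). Hspa9 was at -0.15, and at 0.00 without control 3. Without control 3, 6 of the 7 Hsp70 genes were above 0 with a median of 0.19, against 3 of 7 and a median of -0.03 with it. Over the fits that leave out 1 library this median ran from -0.13 to 0.19, so its direction was not fixed.

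The groups overlapped in all 3 Hsp90 genes. The constitutive Hsp90ab1 was at 972, 830.1 and 880.5 CPM in controls and 925, 863 and 949 in transgenic kidneys (log2 fold change 0.03 ± 0.09, SE). The inducible Hsp90aa1 was at 416, 348 and 517 CPM in controls and 419.8, 378 and 396 in transgenic kidneys (-0.10 ± 0.14, SE, and 0.06 without control 3). The ER form Hsp90b1 was at 609.6, 532 and 769.9 CPM against 676, 554 and 595 (-0.07 ± 0.14, SE, and 0.09 without control 3). In both, control 3 was the highest library and control 2 the lowest. Stip1, which bridges Hsp70 and Hsp90, was at 105, 89.8 and 118 CPM in controls and within 105 to 109.5 in transgenic kidneys (0.04, and 0.14 without control 3). Chordc1, an Hsp90 partner with a heat shock element after its start site, was at -0.08 (0.05 without control 3).

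The mitochondrial ring proteins did not separate the groups. Hspd1 was at 598, 537 and 599 CPM in controls and 558, 559.7 and 563 in transgenic kidneys (log2 fold change -0.04, 95% interval -0.23 to 0.14). Hspe1 was at 238, 212 and 324 CPM in controls and 231, 234 and 247 in transgenic kidneys (-0.12, 95% interval -0.45 to 0.21, and 0.08 without control 3). The element printed above lies before the start site of each gene in the promoter table, and the annotated spans of the genes overlap by 96 bases. By that annotation the element lies within the span of Hspd1 (55077833 to 55088243). Control 3 exceeded the mean of controls 1 and 2 by 0.53 on the log2 scale in Hspe1 and by 0.08 in Hspd1. Of the 8 measured mitochondrial chaperones 7 were below 0, with a median of -0.08. Without control 3 the 8 split into 4 and 4.

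In 1 of the CCT rows all transgenic values were above all controls. Cct7 was at 174, 156 and 176 CPM in controls and 188, 180.3 and 176 in transgenic kidneys, where the lowest transgenic value barely exceeded the highest control (log2 fold change 0.11 ± 0.08, SE; adjusted p = 0.997, edgeR). Tcp1, the first subunit, was at 177, 172 and 186 CPM in controls and 185, 188 and 196 in transgenic kidneys (0.09). Of the 9 CCT rows 5 were above 0, with a median of 0.00. Without control 3 all 9 were above 0, with a median of 0.12, and none was called. Over the fits that leave out 1 library the median ran from -0.05 to 0.12. Control 2 was the lowest library in 8 of the 9 rows and control 3 the highest in 6. The pair of Cct6a rows, at 22.2, 19.1 and 31.7 CPM and at 13.5, 14.5 and 18.1 CPM in controls, cannot be read as separate genes.

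J-domain proteins made up the largest family, with 29 members, of which 25 were below 0 (median -0.06) and 4 above. Without control 3 the family split into 16 below and 13 above (median -0.01). Dnajb6, a suppressor of aggregation with the heat shock element shown above, was at 112, 113 and 124 CPM in controls and 103, 91.6 and 107 in transgenic kidneys. All its transgenic values were lower (log2 fold change -0.21 ± 0.09, SE; 95% interval -0.42 to 0.01; adjusted p = 0.997, edgeR). It was -0.16 without control 3.

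The largest differences in this family were smaller without control 3. Dnaja2, a partner of cytosolic Hsp70, was at 193, 168 and 298 CPM in controls and 169.8, 178 and 180.3 in transgenic kidneys (-0.32, and -0.03 without control 3). Dnajb9, an ER protein that recruits BiP, was at 20.6, 20.7 and 36.5 CPM in controls and 20.3, 17.1 and 22.5 in transgenic kidneys (-0.38, and -0.05 without control 3). Dnaja1 was at 436, 349 and 612 CPM in controls and 422, 369 and 425 in transgenic kidneys (-0.20, and 0.05 without control 3). In each of these 3 genes control 3 was the one value far above the rest. Dnajb1, the inducible Hsp40, instead was low in control 2 (45.9 CPM) and transgenic kidney 2 (51.6) and within 68.3 to 72.1 in the other 4 kidneys. Dnajc7, a cochaperone of Hsp70 and Hsp90, was at 0.08, and Dnajc19 at 0.00 (0.12 without control 3).

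Among the Hsp70 cofactors, Bag1 was at 341, 349 and 325 CPM in controls and 315, 306 and 319.6 in transgenic kidneys, without overlap (log2 fold change -0.11 ± 0.07, SE; -0.14 without control 3; adjusted p = 0.997, edgeR). Bag3, the inducible partner of small heat shock proteins that routes clients to autophagy, was at 49.8, 47.8 and 52.1 CPM in controls and 59.8, 45.1 and 52.1 in transgenic kidneys. Its highest and lowest values were both transgenic (0.07, 95% interval -0.19 to 0.33). Bag6, which guards proteins with exposed membrane segments, was at 155, 176 and 115 CPM in controls and 158, 167 and 157 in transgenic kidneys (0.11, and -0.05 without control 3).

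The ER oxidoreductases overlapped in all 4 genes. Pdia3 was at 463, 364 and 689 CPM in controls and 539, 437 and 494 in transgenic kidneys (log2 fold change -0.04, and 0.24 without control 3), and Pdia6 at 0.03. Of 13 measured ER chaperones 10 were below 0 with a median of -0.05, and without control 3 10 were above 0 with a median of 0.07. Over the fits that leave out 1 library their median ran from -0.16 to 0.07. Control 3 was the highest library in 12 of the 13, the exception being Fkbp11.

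Of the 8 prolyl isomerases of the FK506-binding family, the ER gene Fkbp2 was lower without overlap, at 88.5, 84.4 and 91.5 CPM in controls and 82.1, 77.6 and 81.9 in transgenic kidneys (-0.13 ± 0.09, SE; -0.10 without control 3). Fkbp3, a nuclear isomerase, was at 25.9, 23.7 and 42.2 CPM in controls and 19.1, 24.1 and 25.8 in transgenic kidneys (-0.41, and -0.11 without control 3). Fkbp11, of secretory cells, was at 0.13. Fkbp8, of the outer mitochondrial membrane, lay within 289 to 303 CPM in all 6 kidneys and was the steadiest member.

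Members differed widely in how much they varied between kidneys of 1 group. The SD of log2 CPM within groups had a median of 0.14 over the members and 0.14 over all rows. It was highest in Hspb6 (0.49), Hspa1a (0.43), Hspa1b (0.43), Dnajb9 (0.36), Fkbp3 (0.35), Pdia3 (0.35), Dnajc12 (0.32) and Hspa5 (0.32), and lowest in Fkbp8 (0.03), Hspbp1 (0.03) and Bag1 (0.04). Control 3 was the highest of the 6 libraries in 44 of 75 members (58.7%), against 34.8% of all rows tested. Control 2 was the lowest in 32 members (42.7%, against 20.5% of all rows) and transgenic kidney 2 in 24 (32.0%, against 15.7%).

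Among the 16 measured HSF1 targets control 3 was the highest in 11, and control 2 (11 genes) or transgenic kidney 2 (5 genes) was the lowest in each. Transgenic kidney 1 was the highest in 4 of the others, Hspa1a, Dnajb1, Bag3 and Hspb1, and control 1 in Hsp90ab1. Over these 16 genes the median difference from the gene's mean was -0.22 in control 2, 0.02 in control 1, 0.25 in control 3, 0.03 and 0.05 in transgenic kidneys 1 and 3, and -0.11 in transgenic kidney 2. Kidneys of both groups thus lay on both sides of the mean.

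**Figure D3:**
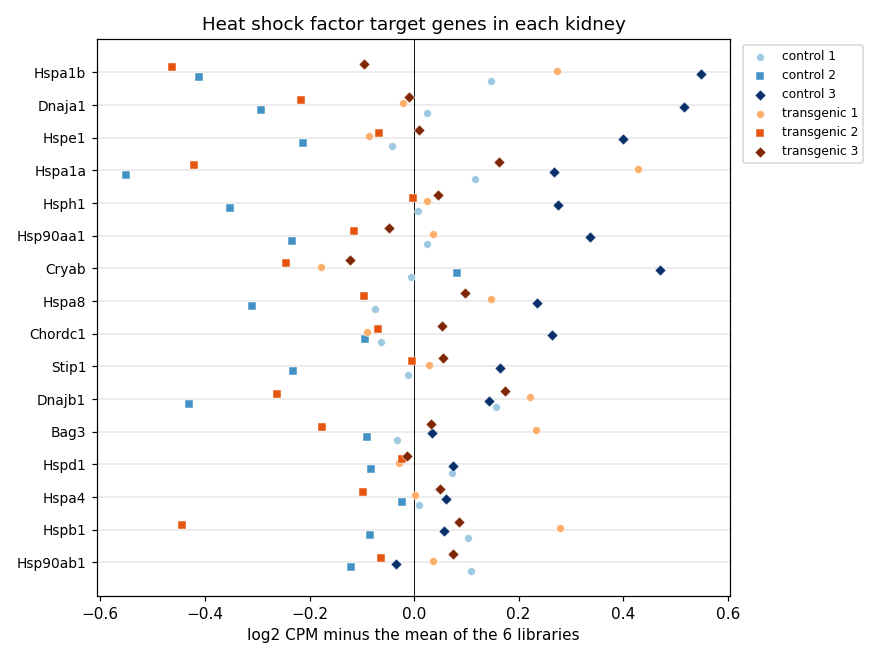
Log2 CPM of the 16 measured HSF1 targets in each of the 6 libraries, less the mean of the 6; symbols give the library, blue for controls and orange for transgenic kidneys. Control 3 lies at the right for most genes, and control 2 or transgenic kidney 2 at the left of every gene.

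By their median, genes of the clock and of temperature response had another order of libraries. Of 20 such genes 11 were measured, with a median difference from the gene's mean of -0.22 in control 3 and between -0.01 and 0.13 in the other libraries. The genes did not move together: control 3 was the lowest library in 6 of the 11 and the highest in 3, Nr1d2 and Bhlhe40 among them. Dbp, a clock output gene, was at 204, 169.7 and 153 CPM in controls and 175, 230.5 and 215 in transgenic kidneys (log2 fold change 0.24). Of 20 immediate early genes, which mark acute stimulation, 8 were measured, with a median of -0.17 in control 3 and 0.14 in control 2 and in transgenic kidney 3. Junb was at 0.31, with all transgenic values above the controls, and Ier2 at 0.19. Their part in the chaperone values was not tested.

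**Figure D4:**
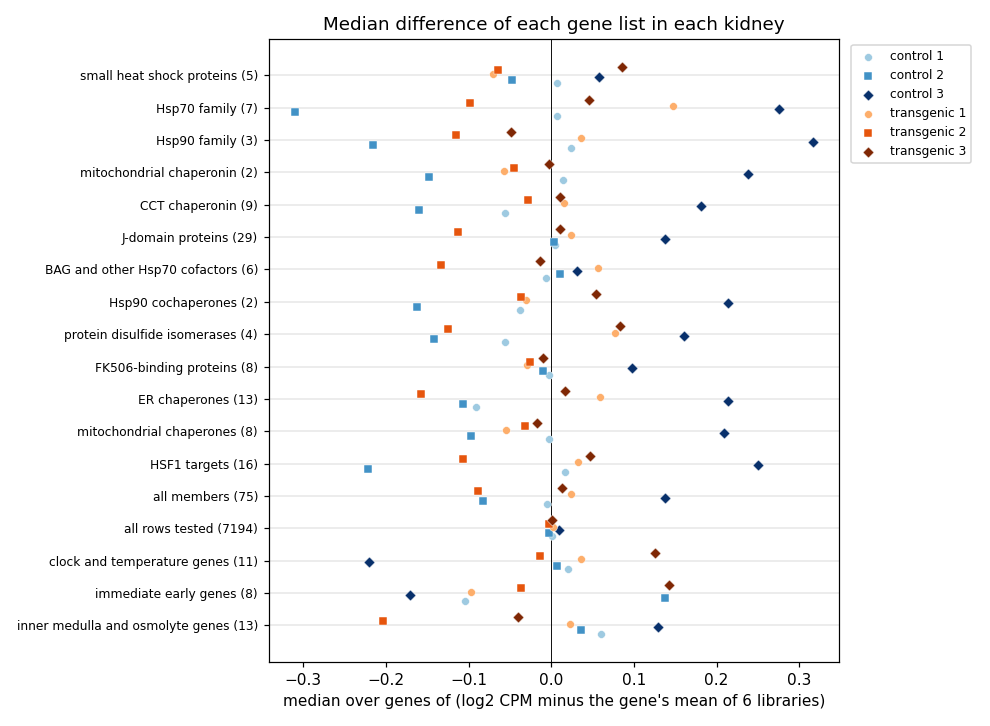
Median over the genes of each list of log2 CPM less the gene's mean of the 6 libraries; the number of genes is in brackets, and symbols give the library. Control 3 is at 0.25 for the HSF1 targets and at -0.22 for the clock and temperature genes, while all rows tested lie near 0 in each library.

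Genes around the chaperone network were read from further lists. HSF1 itself was at 37.1, 39.7 and 29.9 CPM in controls and 39.4, 37.0 and 37.8 in transgenic kidneys (a difference of 0.10 ± 0.12 on the log2 scale, SE; -0.01 without control 3). Control 3 was its lowest library. Vcp, a segregase that pulls proteins from complexes, was at -0.05. Of 22 other cochaperones 10 were above 0 and 12 below, with a median of -0.01. The smallest p-values were those of Ptges3, the Hsp90 partner p23 (-0.32, and -0.02 without control 3), and Grpel1, the exchange factor of mitochondrial Hsp70 (-0.09, and 0.02 without control 3). Of 10 genes of prefoldin and other CCT partners, tubulin cofactors included, 4 were above 0 and 6 below (median -0.03), with Pfdn4 at -0.25 (0.09 without control 3) and Tbcd at -0.07. Of 26 further genes of ER folding and the unfolded protein response 13 were above and 13 below 0 (median 0.01). Txndc11 was at 0.17 and Txndc5, a thioredoxin-like ER protein, at 0.14, the latter with all 3 transgenic values above the controls. In Edem1, a lectin of ER degradation, all were below (-0.10). No gene of these lists passed the edgeR test (adjusted p = 0.997 for each gene named in this paragraph).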

How the data were processed

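Total RNA of snap-frozen kidney was sequenced on an Illumina HiSeq, per the labels. The genome build was mm10, per the submitters' processing notes; for the aligner and the counter: not given in the sources used here. A single file holds, as deposited, estimated counts and log2 normalized values, of which the log2 values enter no result here. Per the file headers, genes had a value called NRPKM of at least 5.0 in at least 2 of 6 samples. The other 12 columns of per-sample values, headed Post_IRI, match no sample analysed and were not used.

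Estimated counts were rounded to whole numbers. Rows at 0 in control 3 were left out. The edgeR (4.0.16, R 4.3.3) quasi-likelihood test used group as the only term, TMM normalization and filterByExpr, with Benjamini-Hochberg adjustment over 7194 rows and two-sided tests at 0.05. An SE is the absolute log2 fold change over the root of the F statistic. An exact permutation test of 3 against 3 cannot go below p = 0.1. CPM are from TMM library sizes. Transcript lengths are from GENCODE M21 (GRCm38), and positions and promoters from RefSeq GRCm38.p6. The analysis was tested on simulated data. DESeq2 (1.42.0) and limma (3.58.1, voom with array weights) were alternatives. The members, lists and tests were chosen with earlier results of these data known. Genes were named by a rule: Cryab, 6 members in each direction by overlap and p-value, leading members of each role, the 8 most variable, and all HSF1 targets, small heat shock proteins and Hsp90 genes, and of each list without members the 2 genes with the smallest p-value. Hspbp1, Cct4, Edem1 and other genes outside the rule were named after their values were seen. Some genes that the rule names are not reported here.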

Additional observations from a re-analysis of the deposited data

How the results depend on the processing

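All settings were planned. The replicate number of the titles as a block gave 1 gene and 0 members called, as without it. Same-numbered kidneys of the 2 groups had correlations of deviations of 0.00, 0.02 and 0.34, so the numbers were not taken to pair the kidneys; control 1 correlated best with transgenic kidney 2 (0.41). The count of genes called over all rows was 1, with 0 when rows at 0 in control 3 were kept and 2 with DESeq2, and 0 to 2 without 1 library. The count of members called was 0 in every setting run. Members higher without overlap numbered 1, and 2 with DESeq2 size factors or the stricter filter; without 1 library they ranged from 1 to 9 and those lower without overlap, 4 in all 6 libraries, from 5 to 9. The median log2 fold change of the members was -0.03, 0.02 with limma voom and array weights, a setting that changes test and weighting together, and between -0.07 and 0.02 without 1 library. Of 39 named members, 11 kept their sign in all 13 settings, Cryab, Dnajb6, Bag1, Fkbp2 and Cct7 among them. The stricter filter removed 5 named members, of which 3 kept their sign in the other 12 settings. Without control 3, 14 changed sign. Without control 2, Hspa8, Hsph1, Hspa1a, Hsp90ab1, Stip1, Dnajb1, Pdia6 and Cct5 turned from higher to lower in transgenic kidneys. The smallest adjusted p of a named member was 0.497 (limma voom with array weights). With 3 libraries a group and control 3 apart from the rest, small differences cannot be told from the spread.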

Other observations

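Among 10 measured genes of protein clearance 5 were above 0 and 5 below. Ubb, which encodes ubiquitin in tandem and is a heat shock gene itself, was at 605, 492 and 593 CPM in controls and at 668, 624 and 656 in transgenic kidneys, with all transgenic values above all controls (log2 fold change 0.20 ± 0.10, SE; adjusted p = 0.997, edgeR; 0.24 without control 3). Uchl1, a ubiquitin hydrolase, was at 12.1, 12.4 and 11.1 CPM in controls and 11.2, 8.40 and 9.55 in transgenic kidneys, with overlap (-0.29, and -0.33 without control 3).

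Among the 11 measured cyclophilins, prolyl isomerases unrelated to the FK506-binding family, Ppil4 was at 27.9, 34.3 and 28.3 CPM in controls and 37.1, 36.1 and 35.8 in transgenic kidneys (log2 fold change 0.27 ± 0.10, SE; unadjusted p = 0.0320, adjusted p = 0.997, edgeR). Ppig was at -0.15. Of the 9 mitochondrial proteases 6 were below 0; the smallest p-values were those of Yme1l1, of the inner membrane, at -0.32 (-0.12 without control 3), and Htra2, at -0.26 (0.00 without control 3).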
